A study of Mus musculus with 24 samples.

Results

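The 92 genes described here were the protein-coding cytosolic ribosomal protein genes of the mouse, chosen by name from 54532 genes counted in RNA-Seq of 4 tissues. The rule took each protein-coding gene whose GENCODE M21 symbol starts with Rpl or Rps followed by a digit, together with Rpsa, Rplp0, Rplp1 and Rplp2, and left out the Rps6k kinases. All animals were Trex1-KO mice, which lack the DNA exonuclease TREX1 and are used as a model of lupus-like disease driven by the DNA sensor cGAS and its adaptor STING. Heart, stomach, muscle and tongue were taken from mice given SN-011, a small-molecule STING antagonist, and from mice labelled untreated, giving 8 groups of 3. The labels give SN-011 at 5 mg/kg with 3 doses a week over 4 weeks, whereas the study's methods describe a higher dose given daily over a shorter course to young mice on the C57BL/6J background, with a vehicle of Tween 80 in PBS for the controls. No wild-type mice were among these samples, so the levels below are those of Trex1-KO tissue throughout. Trex1 itself had 0 counts in all 24 libraries.

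Cytosolic ribosomes translate the mRNAs made in the nucleus. Each holds one copy of nearly every ribosomal protein on a scaffold of ribosomal RNA, with Rps proteins in the small subunit, which reads the mRNA, and Rpl proteins in the large subunit, which joins amino acids. Ribosomal protein mRNAs are among the most abundant of most cells, and most begin at a C followed by a run of pyrimidines, the 5′ terminal oligopyrimidine (TOP) tract, through which the kinase complex mTORC1 regulates their translation. A few have paralogs used mainly in some tissues, the best known being Rpl3l, which is found in striated muscle in place of Rpl3.

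Of the 92 genes, 77 were the standard subunits (46 of the large subunit, the stalk proteins Rplp0, Rplp1 and Rplp2 among them, and 31 of the small subunit), spread over 19 chromosomes with 4 on the X chromosome. Another 8 were paralogs of a standard gene, 6 carried names of pseudogenes (-ps) but are annotated as protein-coding, and 1, Rps19bp1, encodes a nucleolar partner of Rps19 that is no ribosomal subunit. Rpl9-ps1 and Rpl36-ps4 had 0 counts in every sample. All other members were counted in at least 1 sample, and 73 of the 77 standard genes had 100 counts or more in every sample.

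Total counts per library ranged from 14253416 to 18443329, so that 3 counts correspond to between 0.163 and 0.210 CPM, the unit of levels here, in which every library is brought to the same total. CPM values are also scaled by the trimmed mean of M values (TMM) over all 24 samples. Several libraries stood apart and touch the results. Replicate 2 of the SN-011 muscle group detected 11546 genes, where every other library detected 19798 or more. Genes of the gastric gland, such as the pepsinogen Pgc, summed to 2662 CPM in heart control replicate 2, to 2742 and 2175 CPM in tongue control replicates 2 and 3 and to 1238 CPM in muscle control replicate 2, against 5.93 to 65.4 CPM in the SN-011 samples of these 3 tissues and 17361 to 141637 CPM in stomach. The median control was at 278 CPM in heart and 530 CPM in muscle, so further controls of these tissues also lay above the SN-011 samples. Bulk tissue cannot separate fewer cells of a type from less RNA per cell.

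The start of the mRNA and the close likeness of some members set what could be read here. RefSeq promoter windows on GRCm38.p6 (250 bases before to 50 after each start) matched 66 of the 92 symbols, with 78 windows. A C followed by at least 4 pyrimidines within 5 bases of the annotated start was found in 41.0% of these windows, in 18.3% of all 32851 mouse windows and in 22.7% of those of mitochondrial ribosomal protein genes, which carry no TOP tract in the textbook sense. The 30 bases around the start are printed for genes on which the results below turn, with the tract, where found, in capitals, from RefSeq.
Rps27 (chr3:90213634-90213663, minus strand): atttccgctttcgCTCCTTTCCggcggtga
Rps27rt (chr9:114982725-114982754, minus strand): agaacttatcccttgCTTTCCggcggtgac
Rpl39 (chrX:37085208-37085237, minus strand): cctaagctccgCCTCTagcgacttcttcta
Rps6 (chr4:86857353-86857382, minus strand): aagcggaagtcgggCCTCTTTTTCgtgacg
Rpl3l (chr17:24727811-24727840, plus strand): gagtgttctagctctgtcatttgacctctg
Eef1a1 (chr9:78481710-78481739, minus strand): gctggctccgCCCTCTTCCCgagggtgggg
Eef1a2 (chr2:181157001-181157030, minus strand): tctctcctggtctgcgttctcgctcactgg
Among the striated muscle forms, Rpl3l and Eef1a2 lacked such a tract in this window, while Eef1a1, the widespread form of elongation factor 1 alpha, held one of 10 bases. The motif CCGGAAG, on either strand, stood in 34.6% of the members' windows against 8.86% of all windows, and in 34.7% of those of mitochondrial ribosomal protein genes. TATAAA, on either strand, stood in 8.97% of the members' windows against 13.6% of all. A match is only a match of letters, and its absence says nothing of a factor's binding.

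Ribosomal protein genes have many processed copies in the genome, and 301 annotated ribosomal protein pseudogenes were in the files. Of the 77 standard genes, 68 shared at least one stretch of 150 bases (a read's length) of their main mRNA with another annotated gene, and 21 shared more than 50% of such stretches, the median being 29.2%. Rps27, a zinc finger protein of the small subunit, shared 98.0% and its retrocopy Rps27rt 87.1%, each with 2 other genes, one of them the other of the pair. Their coding sequences of 255 bases are identical. Rps27l, the third gene of the group and a p53 target, differs from Rps27 at 53 of 252 aligned coding bases and shared no such stretch with any gene. The coding sequences are shown for the group because the SN-011 comparison between tissues turned on it. Capitals in Rps27l mark bases that differ from Rps27 or have no partner in it.
Rps27 and Rps27rt: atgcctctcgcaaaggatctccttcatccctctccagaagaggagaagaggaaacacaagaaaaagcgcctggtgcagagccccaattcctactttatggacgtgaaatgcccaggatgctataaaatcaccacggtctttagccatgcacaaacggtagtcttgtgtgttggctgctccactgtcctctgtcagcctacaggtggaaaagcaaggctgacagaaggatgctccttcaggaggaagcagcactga
Rps27l: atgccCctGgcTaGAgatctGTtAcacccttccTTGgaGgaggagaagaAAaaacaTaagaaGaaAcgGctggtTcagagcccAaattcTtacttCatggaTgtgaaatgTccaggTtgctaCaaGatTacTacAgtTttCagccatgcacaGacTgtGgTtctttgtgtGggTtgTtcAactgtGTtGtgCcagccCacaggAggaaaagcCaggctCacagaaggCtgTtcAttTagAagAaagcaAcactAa
The split of counts between Rps27 and Rps27rt was therefore uncertain, whereas Rps27l could be counted apart from both.

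Per kilobase of main mRNA, the standard genes ran from the stalk protein Rplp1, at a mean of 2632 CPM per kilobase over the 24 samples, through Rpl41 (1575) and Rps15 (1509), to Rps10 (6.12) and Rpl24 (2.80), with a median of 634. Rpl41 encodes the smallest ribosomal peptide and Rps15 a small subunit protein near the site where the subunits meet. Among tested members other than paralogs, the lowest were Rpl24 and 2 with pseudogene names, Rpl36a-ps1 at 2.04 and Rpl10-ps3 at 1.66. Rpl24, Rps10 and Rpl13a (22.6) each overlapped on the same strand another annotated gene that is no small RNA (Gm28037, RPS10-NUDT3 and Gm45713), as did the paralog Rpl36al (1.57) with Gm49383, and all 4 overlapping genes had 0 counts in every library. Rpl19 had such an overlap too, with Gm11629 (15 counts over all libraries), and was at 745 CPM per kilobase, above the median. Counting programs leave out a read pair that fits more than 1 gene unless told otherwise. What part this had in any of these values was not tested, so the place of these 5 genes in the order of levels is uncertain. In all, 28 members overlapped another gene on the same strand, most of them small RNA genes.

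The share of all counts on the 92 genes was lowest in muscle and highest in tongue and stomach. In the controls it was 3.43%, 2.91% and 3.34% in heart, 2.08%, 1.63% and 1.79% in muscle, 6.51%, 5.86% and 6.02% in tongue and 7.70%, 5.27% and 4.90% in stomach. The means were 3.23% ± 0.28 in heart, 1.83% ± 0.23 in muscle, 6.13% ± 0.34 in tongue and 5.96% ± 1.52 in stomach (SD, n = 3). Muscle lay below heart and heart below both other tissues with no overlap, while tongue and stomach overlapped. SN-011 minus control differences of the mean share were 0.04 percentage points in heart, 0.38 in muscle, 0.84 in tongue and -0.89 in stomach. The annotated ribosomal protein pseudogenes took only 0.0356% ± 0.0048 of counts in muscle controls and 0.131% ± 0.007 in tongue controls.

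**Figure D1:**
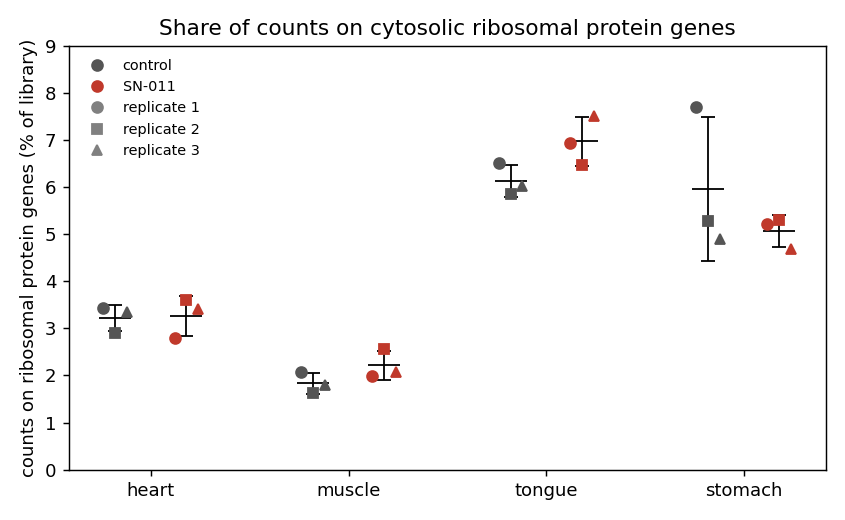
Counts on the 92 ribosomal protein genes as a percent of each library's counts (y axis, linear, from 0) in 4 tissues (x axis), with controls in gray, SN-011 samples in red, one symbol per replicate number, and the mean and SD in black (n = 3). Muscle samples lie between 1.63% and 2.57%, heart samples between 2.80% and 3.59%, and stomach control replicate 1 at 7.70% lies above the other stomach samples.

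The first question was how the members' levels differ between tissues in the control mice, tested with edgeR's quasi-likelihood test on all 24 samples, in which 89 members and 19731 genes were tested. In stomach against muscle 73 members were higher and 1, Rpl3l, was lower (adjusted p under 0.05), where 27.3% of all genes tested were called higher and 24.3% lower. In tongue against muscle 69 members were higher and 2 lower, where 20.0% of all genes were called higher and 18.1% lower. In heart against stomach 1 was higher and 72 were lower (21.0% and 21.6% of all genes), and in heart against tongue 1 was higher and 70 were lower (13.5% and 15.5% of all genes). The median log2 fold change of the members was 1.08 in stomach against muscle, 0.99 in tongue against muscle, -0.97 in heart against stomach and -0.92 in heart against tongue, against 0.12, 0.08, -0.01 and -0.03 over all genes tested. Of the 77 standard genes, 43 had their highest control mean in stomach and 34 in tongue, while 36 had their lowest in heart and 41 in muscle. The median standard gene was at 311 ± 21.4 CPM in heart, 313 ± 37.2 in muscle, 638 ± 34.2 in tongue and 659 ± 301 in stomach (SD, n = 3). By this measure heart overlapped muscle and tongue overlapped stomach. Without the replicate 2 controls of heart, muscle and tongue, a choice made after seeing the data, 39 members passed in tongue against muscle, 35 in heart against tongue, 57 in heart against stomach and 55 in stomach against muscle, where 24.5%, 16.8%, 32.9% and 41.4% of all genes did. Tongue control replicate 3, also high in gastric gland genes, stayed in the fit without the replicate 2 controls. With the control groups of heart and stomach fitted alone, 37 passed, as did 41.6% of all genes.

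The median small subunit gene was above the median large subunit gene in every library except stomach control replicate 1 and stomach SN-011 replicate 3. The median large subunit gene was at 302 ± 15.7 CPM in heart controls and 612 ± 37.1 in tongue controls, and the median small subunit gene at 330 ± 22.0 and 689 ± 27.8. Rps6, the small subunit protein phosphorylated by S6 kinase, was at 463, 357 and 404 CPM in muscle controls and at 730, 832 and 889 CPM in tongue controls. The groups did not overlap, and the log2 fold change was 1.00 (SE 0.18, adjusted p = 0.000144). Rplp0, the stalk protein often used to normalise quantitative PCR, was at 1183, 1003 and 1147 CPM in muscle controls and at 1790, 2342 and 2316 CPM in tongue controls (0.95, SE 0.26, adjusted p = 0.00541). Rplp0 in stomach controls was at 2393, 1425 and 934 CPM, a range that overlapped muscle. The other stalk proteins Rplp1 and Rplp2 had the same order, with Rplp1 at 714 to 944 CPM in muscle controls and 1670 to 1925 in tongue controls (1.08, SE 0.40, adjusted p = 0.0359), and Rplp2 at 322 to 409 and 562 to 750 CPM (0.89, SE 0.35, adjusted p = 0.0548, not past the threshold). Rpsa, a small subunit protein also known as the laminin receptor, ranged from 708 CPM in muscle to 4331 CPM in stomach over the control samples. Rps19bp1 was at 11.4 to 15.8 CPM in heart and muscle controls, 18.2 to 21.9 in tongue controls and 27.7 to 48.3 in stomach controls.

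The members farthest apart in the remaining pairs were few. Against stomach, heart was higher in Rpl3l (7.86, SE 0.49, adjusted p = 2.62e-10) and lower in Rps27rt (-3.02, SE 0.24, adjusted p = 7.07e-09), Rpl36al (-2.46, SE 0.86, adjusted p = 0.0256) and Rps27 (-2.30, SE 0.37, adjusted p = 4.26e-05). Against tongue, heart was higher in Rpl10-ps3 (1.83, adjusted p = 0.0189) and lower in Rpl9-ps6 (-2.72, adjusted p = 1.98e-06), Rps28 (-1.81, adjusted p = 0.00245) and Rps27rt (-1.69, adjusted p = 1.21e-05). Rps28, a protein of the small subunit's head, was at 64.0, 76.8 and 63.0 CPM in heart controls and 251, 231 and 234 in tongue controls, with no overlap. Tongue was higher than muscle in Rps10 (1.93, adjusted p = 0.0167) and Rpl13a (1.77, adjusted p = 2.21e-06), and lower in Rps27l (-0.60, adjusted p = 0.0478), whose sign turned to 0.21 with library size alone. Stomach was higher than muscle in Rps27rt (2.38, adjusted p = 4.94e-08) and Rpl39 (2.31, adjusted p = 5.05e-06). Rps10, Rpl13a and Rpl36al each overlapped another annotated gene on the same strand, as given above. Whether their fold changes rest on only part of their reads was not tested. These comparisons share control groups with each other.

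Heart and muscle were close in ribosomal protein genes when scaled by TMM, with 5 members higher in heart and 5 lower (17.0% and 16.7% of all genes tested) and a median log2 fold change of 0.00. This comparison depended on the samples fitted and on the scaling. Leaving out any 1 control library of either tissue gave 5 to 7 members called (24.9% to 27.97% of all genes), and with the control groups alone 7 were higher and 14 lower (29.4% and 28.6%). With library size alone 69 members were higher in heart and 2 lower (42.1% and 6.26% of all genes), with a median of 0.84, as the median of all genes tested moved from 0.11 to 0.94. The 10 genes with the most counts took 23.8% to 25.6% of each muscle control library and 11.01% to 14.96% of each heart control library. Rpl3 (1.80), Rpl39 (0.98) and Rpl10-ps3 (2.38) were higher in heart, and Rpl3l (-3.52), Rpl9-ps6 (-2.03) and Rpl22l1 (-1.24) were lower, on the log2 scale. The values of Rpl10-ps3 and Rpl9-ps6 are uncertain for the shared stretches given above. Rpl39 encodes a small protein lining the exit tunnel of the large subunit and was at 224, 195 and 220 CPM in heart controls against 122, 98.2 and 104 in muscle controls (SE 0.31, adjusted p = 0.0189). In stomach against tongue 8 members were higher and 2 lower (16.9% and 20.0% of all genes), among them Rps27l (1.35), Rps27rt (1.33) and Rpl17 (0.89) higher in stomach, and Rpl3l (-9.54) and Rpl15 (-0.42) lower. Without stomach control replicate 1 this comparison had 3 members higher and 26 lower (15.1% and 19.6% of all genes), and without stomach control replicate 3 it had 19 higher and 1 lower (15.7% and 16.96%).

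**Figure D2:**
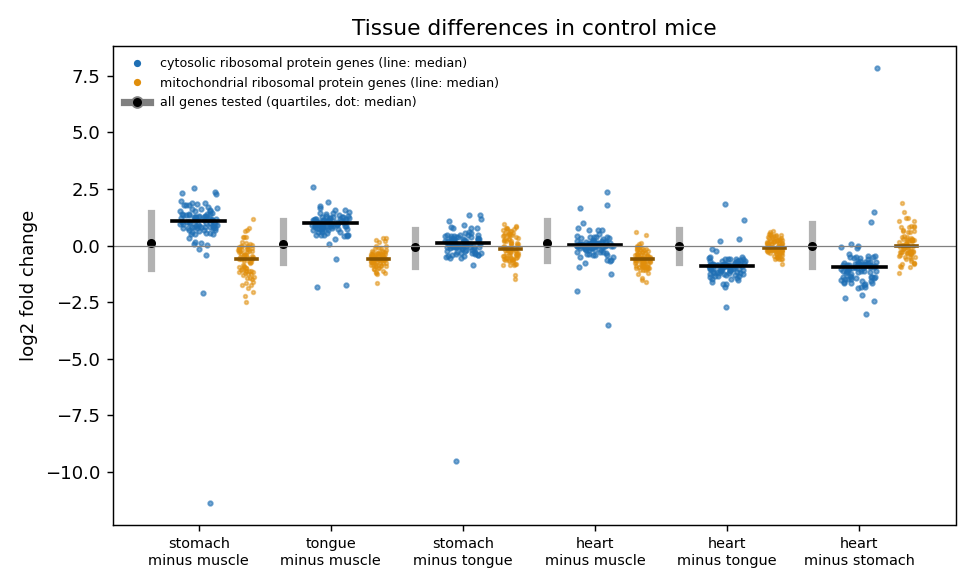
Log2 fold change (y axis) between control tissues for each tested member (blue, line at the median), each mitochondrial ribosomal protein gene (orange) and all genes tested (gray bar for the quartiles, dot for the median). The blue medians lie near 1 in both comparisons with muscle on the left and near -1 in both comparisons of heart on the right, and the single blue points at -11.37, -9.54 and 7.86 are Rpl3l in comparisons with stomach.

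Mitochondrial ribosomal protein genes, which serve the separate ribosomes inside mitochondria, did not share this order. Of 77 tested, 4 were higher and 40 lower in stomach against muscle (27.3% and 24.3% of all genes), with a median log2 fold change of -0.58, and 0 were higher and 41 lower in tongue against muscle (median -0.58; 20.0% and 18.1% of all genes). In heart against muscle 1 was higher and 38 were lower (median -0.61; 17.0% and 16.7% of all genes). Their median level was 60.0 ± 1.47 CPM in muscle controls and 39.7 to 41.9 CPM as the mean of the other 3 tissues' controls.

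Muscle had the lowest Rpl3 and the highest Rpl3l of the 4 tissues. Rpl3 sits near the peptidyl transferase centre of the large subunit, and Rpl3l takes its place in ribosomes of heart and skeletal muscle. Rpl3l (chr17:24727820-24736143, plus strand, mm10) was at 820, 954 and 916 CPM in muscle controls, at 299, 248 and 207 in tongue controls and at 73.1, 98.0 and 63.9 in heart controls. In stomach controls it had only 11, 2 and 5 counts. Rpl3 (chr15:80077791-80091868, minus strand) was at 153, 103 and 117 CPM in muscle controls, 474, 393 and 426 in heart, 691, 757 and 769 in tongue and 953, 622 and 566 in stomach. The tissues did not overlap in Rpl3l, and in Rpl3 only tongue and stomach did. Per kilobase of main mRNA, Rpl3l made up 87.6% ± 3.16 of the pair in muscle controls, 25.02% ± 4.49 in tongue controls, 15.2% ± 3.86 in heart controls and 0.0441% ± 0.0315 in stomach controls (SD, n = 3). Between heart and muscle the log2 fold change was 1.80 (SE 0.20, adjusted p = 6.52e-07) for Rpl3 and -3.52 (SE 0.37, adjusted p = 2.87e-07) for Rpl3l. Between tongue and muscle it was 2.57 (SE 0.21, adjusted p = 9.38e-09) for Rpl3 and -1.84 (SE 0.34, adjusted p = 0.000239) for Rpl3l. The coding sequences were 77.5% identical over aligned bases, and no 150-base stretch of Rpl3l occurred in another gene, while 71.0% of those of Rpl3 did, so Rpl3 may be undercounted and the percentages of Rpl3l overstated.

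**Figure D3:**
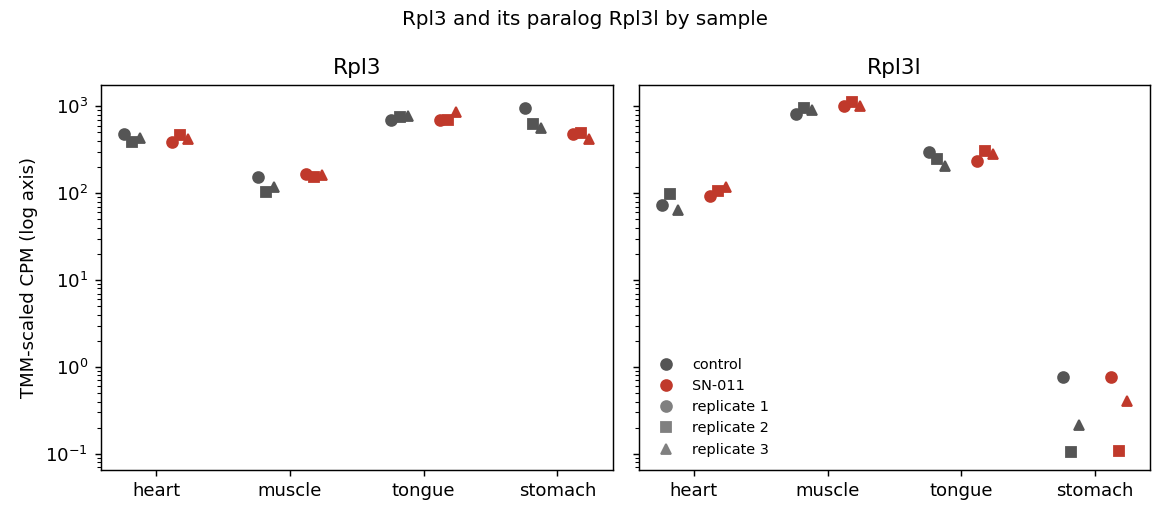
TMM-scaled CPM (y axis, log scale) of Rpl3 (left) and Rpl3l (right) by tissue (x axis), controls in gray, SN-011 in red, one symbol per replicate number. Muscle has the lowest Rpl3 (103 to 167 CPM) and the highest Rpl3l (820 to 1109 CPM) of the 4 tissues, and Rpl3l in stomach stays below 1 CPM.

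The elongation factor eEF1A also has a muscle form, Eef1a2, and a widespread form, Eef1a1. Both Eef1a2 and Rpl3l were highest in muscle and lowest in stomach, but Eef1a2 was higher in heart than in tongue and Rpl3l higher in tongue than in heart. Eef1a2 was at 2822, 3674 and 3652 CPM in muscle controls, 1373, 1421 and 1091 in heart, 542, 709 and 567 in tongue and 20.4, 4.07 and 5.10 in stomach. Eef1a1 was at 1214, 864 and 987 CPM in muscle controls and between 2423 and 4141 CPM in every control of the other tissues (heart against muscle 1.49, SE 0.24, adjusted p = 6.78e-05). Markers of skeletal muscle summed to 199822 to 227936 CPM in muscle controls, 15832 to 25527 in tongue controls, 1337 to 1784 in heart controls and 8.20 to 342 in stomach controls. Their part in the order of Rpl3l was not tested. Eef2, the translocation factor, did not pass the test between heart and muscle (-0.09, SE 0.23, adjusted p = 0.802).

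The other paralogs did not share that pattern. Rpl22l1, the paralog of Rpl22, was lower in heart (21.2, 18.9 and 24.2 CPM in controls) than in muscle (57.2, 48.2 and 46.7), tongue (43.8, 46.9 and 70.5) and stomach (83.9, 67.1 and 40.5), while Rpl22 was at 192, 189 and 200 CPM in heart controls and 208, 187 and 196 in muscle controls. The heart groups did not overlap the others in Rpl22l1, and the test against muscle gave -1.24 (SE 0.23, adjusted p = 0.000295). For Rpl22 the same comparison gave -0.02 (SE 0.16, adjusted p = 0.937). Rpl7l1 varied little, with all control samples between 44.03 and 80.4 CPM, and Rpl7 lay between 454 and 1365 CPM in them. Rpl36al, one of the genes with such an overlap, had at most 2.68 CPM and was not compared with its partner Rpl36a, which was at 91.6 to 400 CPM in controls. Rpl39l, known from testis, was at most 1.44 CPM, and Rpl10l, which replaces Rpl10 during male meiosis, had no count in 22 of the 24 samples and at most 3 in the other two. Of genes that encode ribosomal proteins under other names, Fau was at 265 to 378 CPM in heart and muscle controls and 505 to 1171 in tongue and stomach controls, and Rack1 at 411 to 618 and 566 to 1257.

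Rpl29 was high in only 1 of the replicate numbers of 1 treatment group, in every tissue. Rpl29 encodes a large subunit protein with a heparin-binding tail. Control replicate 3 had 144 CPM in heart, 145 in muscle, 267 in tongue and 203 in stomach, whereas the other 20 samples of both treatments lay between 0.560 and 12.4 CPM. Of the 7219 genes with at least 10 CPM in all 4 of those samples or in all 20 others, Rpl29 was the only one in which the 4 samples stood at least 8-fold apart from all others, a criterion set after its values were seen. Rpl29 lies at chr9:106429454-106431568 (mm10, plus strand), 2626 kb from Trex1 on the same chromosome. It shared 35.1% of its 150-base stretches with other genes and overlapped no gene's exons. The fitted SN-011 effect on Rpl29 was -2.82 in heart (SE 1.03, adjusted p = 0.160), -3.67 in muscle (SE 1.55, adjusted p = 0.346), -3.10 in tongue (SE 1.31, adjusted p = 0.399) and -3.39 in stomach (SE 1.15, adjusted p = 0.132). Without control replicate 3 it was -0.03, -0.31, 0.36 and -0.37, so that the effect rested on that replicate in all 4 tissues.

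**Figure D4:**
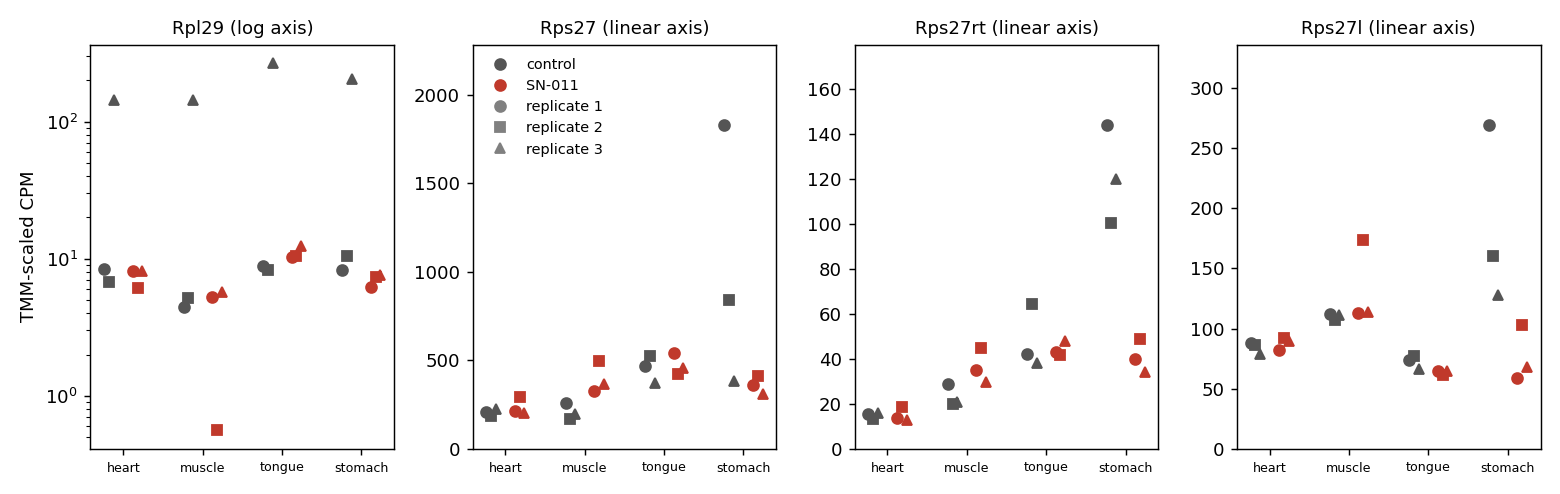
TMM-scaled CPM by tissue for Rpl29 (log axis) and for Rps27, Rps27rt and Rps27l (linear axes from 0), controls in gray, SN-011 in red, one symbol per replicate number. Rpl29 lies at 144 to 267 CPM in control replicate 3 of each tissue and at most at 12.4 CPM in the other samples, and the stomach controls of Rps27rt (100 to 144 CPM) lie above its stomach SN-011 samples (34.0 to 48.9 CPM).

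The second question was whether SN-011 altered these genes. With edgeR's quasi-likelihood test in each tissue, 0 members passed an adjusted p of 0.05 in heart, stomach, muscle and tongue, of 87, 87, 85 and 88 tested. Leaving out single libraries gave at most 1 higher in heart (without control replicate 2, where 2.28% of all genes were called higher), 3 higher in tongue (without control replicate 1, where 4.41% were) and 0 in stomach and muscle. Over all genes tested 0.848% were called in heart, 0.0141% in muscle and 0% in stomach and tongue. At an unadjusted p under 0.05, 6 members were higher and 1 lower in heart, 0 higher and 7 lower in stomach, 56 higher and 0 lower in muscle and 2 higher and 1 lower in tongue. The matching shares over all genes were 10.8% higher and 11.6% lower in heart, 13.2% and 11.4% in stomach, 8.96% and 5.80% in muscle, and 5.17% and 7.33% in tongue. DESeq2 called 0 members in heart, 5 lower in stomach, 10 higher in muscle and 1 higher in tongue, where of all genes given an adjusted p it called 8.96% in either direction in heart, 6.54% lower in stomach, 4.92% higher in muscle and 0.795% higher in tongue. The edgeR exact test called 0, 3 lower, 1 higher and 0 members, and 5.68%, 4.12%, 2.02% and 0.404% of all genes in the same directions. A fit of all 24 samples together called 20 members lower in stomach, where 7.18% of all genes were called lower, and 0 in heart (0.00507% of all genes in either direction), muscle (0.993% higher) and tongue (0.00507% higher).

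In muscle the members leaned upward together without passing the test. The median log2 fold change was 0.49 against -0.08 over all genes tested, 82 of 85 members had a positive sign, and in 57 every SN-011 sample exceeded every control, where 11.5% of all genes did so. The median standard gene was at 352, 278 and 309 CPM in the controls and at 383, 456 and 408 CPM in the SN-011 samples. Rps7, of the small subunit, was among those with the smallest p. It was at 238, 220 and 197 CPM in controls and 305, 249 and 304 with SN-011, with no overlap (0.47, SE 0.12, adjusted p = 0.192). The lowest p among negative signs, apart from Rpl29, was that of Rps10 (-0.44, SE 1.26, adjusted p = 0.881), which had 0 counts in SN-011 replicate 2. Without that replicate, the library with few genes, the median was 0.34. The markers of skeletal muscle summed to 199822 to 227936 CPM in controls and 243614 to 247370 with SN-011, those of lymphocytes to 66.3 to 73.2 and 42.1 to 50.6, and those of proliferating cells to 22.8 to 39.3 and 0.112 to 17.5. Markers of cardiomyocytes summed to 42.0 to 198 CPM in controls and 199 to 413 with SN-011, those of the gastric gland to 72.0 to 1238 and 22.8 to 65.4, and those of squamous epithelium to 10.4 to 15.6 and 6.83 to 7.53. In none of these 6 lists did the groups overlap, the lists of skeletal muscle and cardiomyocytes being higher with SN-011 and the other 4 lower. Their part in the members' levels was not tested.

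In stomach the sign was the reverse, and it leaned on 1 control. The median log2 fold change was -0.44 against 0.00 over all genes tested, with 7 of 87 members positive, and in 17 every SN-011 sample lay below every control, where 16.1% of all genes did. The median standard gene was at 992, 580 and 405 CPM in the controls and 413, 562 and 415 CPM with SN-011, so that control replicate 1 lay above all other stomach samples. Without it the median was -0.08, and the difference in the share of counts went from -0.89 to -0.02 percentage points. Control replicate 3 departed from the others in single members, with Rpl23a at 22.2 CPM against 196 to 291 in the other 5 stomach samples and Rpl28 at 127 against 553 to 1337 CPM. These 2 genes were picked after their values were seen. Rps27rt and Rps27l came nearest to the threshold. Rps27rt was at 144, 100 and 120 CPM in controls and 40.0, 48.9 and 34.0 with SN-011 (-1.53, SE 0.26, adjusted p = 0.0621), and Rps27l at 269, 160 and 128 and 58.7, 103 and 67.6 (-1.24, SE 0.35, adjusted p = 0.0997). The groups did not overlap in either gene. Without control replicate 1 the values were -1.44 (adjusted p = 0.0581) and -0.93 (adjusted p = 0.123). In the other direction Rps10 (0.57, SE 0.37, adjusted p = 0.377) and Rpl13a (0.21, SE 0.21, adjusted p = 0.575) had the smallest p. Markers of squamous epithelium, such as the keratins of the forestomach, summed to 95.2 to 220 CPM in stomach controls and 391 to 1251 with SN-011, those of the gastric gland to 40536 to 141637 and 17361 to 102053, those of proliferating cells to 233 to 327 and 90.9 to 182, and those of brown fat to 0.821 to 1.18 and 2.75 to 3.52. Genes of the mitochondrial genome took 3.00%, 5.44% and 7.24% of counts in stomach controls, the lowest being control replicate 1, and 14.9%, 7.08% and 11.1% with SN-011. Their part in the members' levels was not tested.

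**Figure D5:**
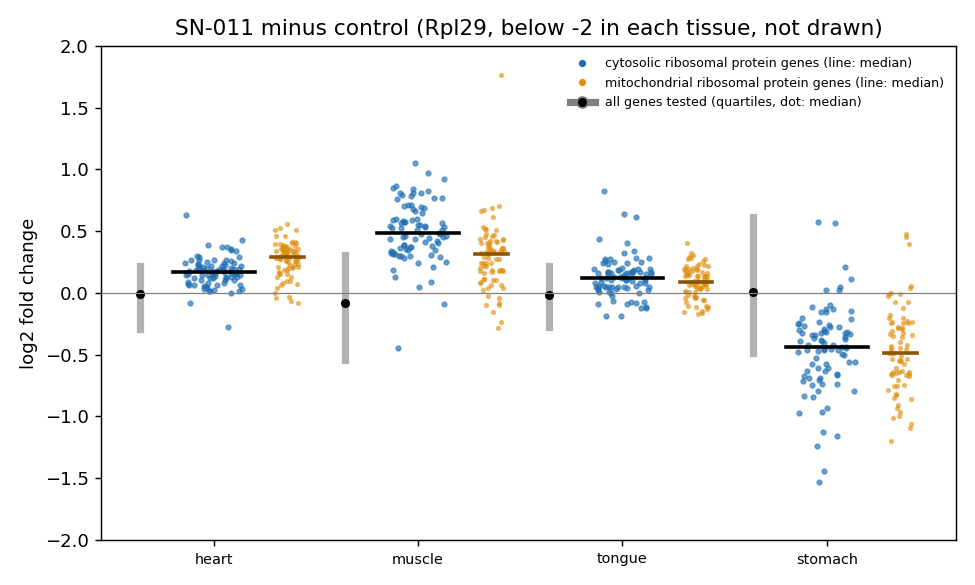
Log2 fold change of SN-011 against control (y axis) in 4 tissues (x axis) for each tested member (blue, line at the median), each mitochondrial ribosomal protein gene (orange) and all genes tested (gray bar for the quartiles, dot for the median). Rpl29, at -2.82 to -3.67, is off the axis. The blue medians are 0.17 in heart, 0.49 in muscle, 0.12 in tongue and -0.44 in stomach.

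Heart and tongue had medians nearer to 0. In heart the median was 0.17 and 83 of 87 members had a positive sign, while in 14 the groups did not overlap upward (13.7% of all genes). With single libraries left out, the median over all genes tested in heart ran from -0.04 to -0.0001. Rpl36, of the large subunit, was at 311, 291 and 262 CPM in controls and 312, 430 and 381 with SN-011 (0.39, SE 0.15, adjusted p = 0.178). Rps7 was at 409, 338 and 307 against 420, 495 and 439 (0.37, SE 0.15, adjusted p = 0.183), and Rps27a, a fusion of ubiquitin and a ribosomal protein, at 335, 230 and 302 against 206, 231 and 273 (-0.28, SE 0.17, adjusted p = 0.369). In tongue the median was 0.12, 74 of 88 members were positive and 27 did not overlap upward (9.79% of all genes). The median over all genes tested in tongue ran from -0.02 to 0.01 with single libraries left out. Rps10 was at 6.93, 6.59 and 6.501 CPM in tongue controls and 13.3, 12.6 and 9.70 with SN-011 (0.83, SE 0.19, adjusted p = 0.268). Rpl21 was at 456, 323 and 341 against 503, 465 and 514 (0.40, SE 0.17, adjusted p = 0.399), and Rps27l at 73.7, 77.3 and 66.8 against 64.6, 61.6 and 65.0 (-0.19, SE 0.11, adjusted p = 0.505). Rpl3l was at 91.7, 106 and 117 CPM in SN-011 heart, 1014, 1109 and 1002 in SN-011 muscle and 234, 306 and 285 in SN-011 tongue, and its SN-011 effect in these tissues was 0.43, 0.32 and 0.13 with adjusted p of 0.188, 0.379 and 0.779. Rpl3l's share of the Rpl3 pair was 86.4% ± 1.10 in muscle and 19.4% ± 1.66 in heart with SN-011 (SD, n = 3). In heart, markers of cardiomyocytes summed to 22909 to 32163 CPM in controls and 32981 to 40009 with SN-011, those of brown fat to 22.2 to 33.1 and 39.9 to 63.5, and those of proliferating cells to 94.7 to 139 and 68.4 to 72.4. None of these 3 overlapped between the groups. In tongue, markers of cardiomyocytes summed to 40.1 to 46.0 CPM in controls and 46.1 to 62.2 with SN-011, and those of the gastric gland to 44.3 to 2742 and 12.8 to 39.5. The part of these lists in the members' levels was not tested.

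The tissues' SN-011 effects were then compared with each other by an interaction term. Stomach minus muscle had 20 members past the threshold, all 20 negative (3.92% of all genes tested were called in the positive and 3.04% in the negative direction). Rps27 had the largest value (-2.43, SE 0.50, adjusted p = 0.00814), followed by Rps27rt (-2.22, SE 0.32, adjusted p = 0.00182) and Rpl39 (-1.90, SE 0.44, adjusted p = 0.0152), and the remaining 17 lay between -1.70 for Rpl41 and -0.76 for Rpl10. Rps27 was at 1827, 840 and 385 CPM in stomach controls and 359, 412 and 311 in stomach with SN-011, and at 259, 169 and 195 in muscle controls and 325, 496 and 369 in muscle with SN-011. Its own effects were -1.44 in stomach (adjusted p = 0.156), where the groups overlapped, and 1.05 in muscle (adjusted p = 0.204), where they did not. Rpl39 was at 855, 489 and 263 CPM in stomach controls and 205, 293 and 197 with SN-011, and at 127, 251 and 145 in muscle with SN-011. Without both stomach control replicate 1 and muscle SN-011 replicate 2, 11 members passed (3.91% of all genes in the negative direction), and the values were -1.51 (adjusted p = 0.0186) for Rps27, -1.91 (adjusted p = 0.00159) for Rps27rt and -1.03 (adjusted p = 0.0530) for Rpl39. When the 4 groups of stomach and muscle were fitted alone, 0 members passed, but very few of all genes did either (share given under the processing below). DESeq2 called 36 (6.004% of all genes negative). Leaving out single libraries gave from 4 calls, without stomach SN-011 replicate 1, to 62, without stomach control replicate 3, all of them negative (0.840% and 6.52% of all genes). Heart minus stomach had 2 members past the threshold, Rps27rt (1.58, SE 0.32, adjusted p = 0.0206) and Rps27l (1.34, SE 0.33, adjusted p = 0.0398), where 1.20% of all genes were called positive. Without stomach control replicate 1, Rps27l was at 0.98 and did not pass (adjusted p = 0.0668), while Rps27rt was at 1.44 (adjusted p = 0.0230). Without both that library and muscle SN-011 replicate 2, Rps27l was again at 0.98 but passed (adjusted p = 0.0173). The count for heart minus stomach ran from 0, for example without heart control replicate 3, to 23, without stomach control replicate 3 (3.87% of all genes positive). Over the 12 fits with a single library left out, 0.0146% to 3.87% of all genes were called positive. Stomach minus tongue had 1, Rps27rt (-1.44, SE 0.32, adjusted p = 0.0407), where 0.208% of all genes were called negative. Without stomach control replicate 3 it had 14 (1.49% of all genes negative), while leaving out any tongue SN-011 library gave 0. Over its 12 fits with a single library left out, 0% to 1.73% of all genes were called negative. With the replicate number as a block stomach minus tongue had 0, Rps27rt being at -1.46 (adjusted p = 0.0526), and the share of all genes is given under the processing below. By edgeR's quasi-likelihood test no member passed between heart, muscle and tongue, where 0.00507% (heart minus muscle), 0% (heart minus tongue) and 0.0355% (tongue minus muscle) of all genes were called. At an unadjusted p under 0.05 these 3 comparisons had 0, 0 and 1 members, and DESeq2 called 0 in each. No share of all genes is given for these settings, so these counts show nothing particular to the members. All of these comparisons share groups with each other. As the split of counts between Rps27 and Rps27rt was uncertain, their values may not be separate results.

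Genes of the same process were read from fixed lists. Of 37 ribosome biogenesis genes, 5 were higher and 14 lower in stomach against muscle (median -0.10) and 10 higher and 3 lower in tongue against muscle (median 0.19). Of all genes tested, 27.3% were higher and 24.3% lower in the first comparison and 20.0% and 18.1% in the second. Fbl, the nucleolar methyltransferase fibrillarin, was higher in stomach than in muscle (1.43, SE 0.25, adjusted p = 6.42e-05) and so was Eif6, the factor that keeps the subunits apart (1.73, SE 0.42, adjusted p = 0.00180), whereas Rrp12 was lower (-2.22, SE 0.29, adjusted p = 2.51e-06). Of 18 elongation factors and other TOP mRNAs, 4 were higher and 6 lower in that comparison (median -0.05), with Pabpc1, the poly(A)-binding protein, at 1.77 (SE 0.21, adjusted p = 7.53e-07). Of 15 genes of mTORC1 and its control of TOP mRNAs, 1 was higher and 10 were lower (median -0.81), with Eif4ebp1, the mTORC1 target that restrains cap binding, at -2.85 (SE 0.33, adjusted p = 5.37e-07). For SN-011 no gene of these 3 lists passed edgeR's quasi-likelihood test in any tissue. At an unadjusted p under 0.05, 7 of 18 elongation and other TOP genes, 8 of 37 biogenesis genes and 2 of 15 mTORC1 genes were higher in muscle, and 0, 0 and 1 were lower, where 8.96% of all genes were higher and 5.80% lower. In heart 3, 3 and 4 were higher and 0, 1 and 0 lower (10.8% and 11.6% of all genes), in stomach 0, 4 and 1 higher and 0, 2 and 1 lower (13.2% and 11.4%), and in tongue 0, 3 and 2 higher and 0, 1 and 0 lower (5.17% and 7.33%). Mitochondrial ribosomal protein genes had SN-011 medians of 0.29 in heart, 0.32 in muscle, 0.09 in tongue and -0.48 in stomach, with 0 of 77 past the threshold in each. At an unadjusted p under 0.05, 37 of the 77 were higher in heart, 13 in muscle and 2 in tongue, where 10.8%, 8.96% and 5.17% of all genes were, and 18 were lower in stomach, where 11.4% were.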

How the data were processed

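RNA-Seq gene counts of the 24 samples (8 groups of 3) were analysed as deposited. Per the labels, the authors extracted RNA with Trizol and sequenced poly(A)-selected libraries, and the submitters' processing notes name HISAT2, HTSeq and mm10. The study's methods name featureCounts and another sequencer, a discrepancy left unsettled. The deposited values are raw counts per gene, and which program made them could not be settled. The study's methods describe several tissues collected from the treated mice, and it gives 3 per group. Neither they nor the labels state which samples share a mouse, so p-values measure the spread between these samples. Deviations of same-numbered samples from their group means correlated at 0.47, 0.52 and 0.25 between heart and muscle controls. Between muscle and tongue controls the values were 0.37, 0.41 and 0.15. By these data, not the labels, same-numbered samples of these tissues may share a mouse. Between heart and tongue controls the values were 0.43, 0.41 and 0.07, and in every other pair of groups at least 1 number was at or under 0.10. The correlations do not settle which samples share a mouse. Own numbers correlated best in 30 of 36 checks among controls and 28 of 36 among SN-011 samples. The main fits treat all samples as independent, also those that may share a mouse. An alternative joint fit with the replicate number as a block took samples of the same treatment and number as 1 mouse.

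edgeR 4.0.16 (R 4.3.3) was used with TMM scaling, filterByExpr (minimum count 10, minimum total 15) and the quasi-likelihood test. SN-011 was tested within each tissue, and tissue pairs and interactions in a fit of all 24 samples. p-values were adjusted over all genes tested by Benjamini-Hochberg. Fold changes are log2 with a prior count of 0.125. Alternatives were DESeq2 1.42.0, the exact test, other scalings and filters, and left-out samples. The quasi-likelihood fit was run on simulated counts for SN-011 in heart, heart against muscle in controls, and stomach minus muscle. The other steps and alternatives were not tested in this way. Levels per length divide by the main mRNA. Total counts of 14253416 to 18443329 limit precision by counting error only. Named were members with the largest changes past the threshold, or the smallest p where none passed, together with paralogs, stalk proteins and the highest and lowest levels per length. The members and lists were chosen with earlier results of these data known. Some genes that this rule names are not reported here.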

Additional observations from a re-analysis of the deposited data

Results flagged for a closer look

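The SN-011 effect differed between tissues by the interaction test in 3 comparisons. Heart minus stomach had 2 members past the threshold, Rps27rt (1.58) and Rps27l (1.34), where 1.20% of all genes tested were called positive, and 0 to 23 when single libraries were left out. Without stomach control replicate 1, Rps27l was at 0.98 and did not pass (adjusted p = 0.0668), while Rps27rt was at 1.44 (adjusted p = 0.0230). Stomach minus muscle had 20, among them Rps27 (-2.43), Rps27rt (-2.22) and Rpl39 (-1.90), where 3.04% of all genes were called negative, and 4 to 62 without single libraries. Stomach minus tongue had 1, Rps27rt (-1.44), where 0.208% were called negative, 0 to 14 without single libraries, and 0 with the replicate number as a block, where Rps27rt was at -1.46 (adjusted p = 0.0526). With the 4 groups of each tissue pair fitted alone, or without the replicate 2 controls of heart, muscle and tongue, these counts were 0, 0 and 0, and 0, 1 and 0, both alternatives chosen after seeing the data. Under both alternatives the shares of all genes called were also lower than in the main fits. These shares, those with single libraries left out and that with the block, are given in the next section. Rps27 and Rps27rt have identical coding sequences, so the split of counts between them was uncertain.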

How the results depend on the processing

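Percentages in parentheses are the share of all genes called under the same setting, in the members' direction where they had 1 direction and otherwise in either. Under SN-011, members past the threshold were 1 in heart without a filter (3.92%), in stomach 3 without a filter (1.84%), 1 with at least 10 counts in every sample (0.155%), 5 by DESeq2 (6.54%), 3 by the exact test (4.12%) and 20 in the joint fit (7.18%), in muscle 10 by DESeq2 (4.92%) and 1 by the exact test (2.02%), and in tongue 1 by DESeq2 (0.795%). With library size alone the medians were 0.018 in heart, 0.27 in muscle and 0.20 in tongue. Heart against muscle had a median of 0.16 with DESeq2 size factors, 0.16 with DESeq2, 0.16 with the stricter filter and 0.84 with library size alone, and 71 members called with library size (48.4%), 21 with the control groups alone (58.0%) and 5 without the number 2 controls (20.2%). Tongue against muscle had medians of 1.13, 1.13, 1.15 and 1.79 under the same 4 settings, and 39 calls without the number 2 controls (24.5%). Stomach against muscle had 1.77 with library size alone. Stomach against tongue had 16 calls with library size alone (36.8%), 6 without a filter (18.9%), 3 with the control groups alone (30.6%) and 6 without the number 2 controls (28.3%). Heart against stomach had 37 with the control groups alone (41.6%), and heart against tongue 35 without the number 2 controls (9.77%). Interaction calls for heart minus stomach were 1 with library size alone (0.568%), 1 without a filter (0.320%), 12 by DESeq2 (3.64%), 0 in the fit of the 4 groups (0.0699%) and 0 without the number 2 controls (0.0489%). For stomach minus muscle they were 7 (1.39%), 10 (1.05%), 36 (6.004%), 0 (0.0446%) and 1 (0.533%), and 11 without both stomach control 1 and muscle SN-011 2 (3.91%). For stomach minus tongue they were 8 by DESeq2 (2.0004%), 0 in the fit of the 4 groups (0.00536%) and 0 without the number 2 controls (0.00978%). With the replicate block, 0 members passed in stomach minus tongue (0.334%). The block changed no other count of calls by over 1.5 times. Same-numbered control and SN-011 samples of a tissue were not taken as pairs, since their deviations correlated at means of -0.26 to 0.06 and 10 of 24 samples correlated best with their own number. The replicate 2 and paired libraries left out were chosen after seeing the data. Reversed signs were 0.21 for Rps27l in tongue against muscle with library size alone, 0.13 for Rps10 in muscle without SN-011 replicate 2 (range -1.40 to 0.13) and 0.36 for Rpl29 in tongue without control replicate 3 (range -3.65 to 0.36). The causes were not tested.

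Leaving out single samples gave 0 to 1 calls in heart (0.00598% to 4.74%), 0 to 3 in tongue (0% to 12.5%) and 0 to 0 in stomach (0% to 0.356%) and muscle (0% to 7.40%) under SN-011, with medians of 0.09 to 0.24, 0.09 to 0.16, -0.63 to -0.08 and 0.34 to 0.59, and share differences of -0.13 to 0.27, 0.57 to 1.099, -1.42 to -0.02 and 0.20 to 0.50 percentage points. Calls were 5 to 7 in heart against muscle (24.9% to 27.97%), 52 to 82 in heart against stomach (34.2% to 40.4%), 53 to 62 in heart against tongue (19.8% to 25.3%), 52 to 66 in tongue against muscle (30.3% to 34.6%), 54 to 79 in stomach against muscle (43.4% to 48.3%) and 7 to 29 in stomach against tongue (29.8% to 34.7%). In these ranges shares are in either direction. Their medians were -0.07 to 0.08, -1.20 to -0.65, -0.95 to -0.86, 0.90 to 1.06, 0.65 to 1.28 and -0.35 to 0.27. Interaction calls were 0 to 23 in heart minus stomach (0.0146% to 3.87% of all genes positive), 4 without stomach SN-011 replicate 1 to 62 without stomach control replicate 3 in stomach minus muscle (0.840% to 6.52% negative) and 0 to 14 in stomach minus tongue (0% to 1.73% negative). Stomach against tongue had 29 calls without stomach control replicate 1.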
